A study of Mus musculus with 8 samples.

Results

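The 45 genes described here encode the proteins that copy nuclear DNA: the factors that license origins, the replicative helicase, the sliding clamp and its loader, the single-strand binding protein, the polymerases, the enzymes that finish the lagging strand, the enzymes that supply deoxynucleotides, and 3 proteins that rebuild chromatin on the copied strands. They were chosen by symbol from their known roles, with earlier results of these data known; all 45 were among the 13439 genes listed, and all 45 were among the 13120 genes tested, those that reached 1 CPM (the reads of a gene scaled to the total of its library) in 2 or more libraries. Orc1 reached 1 CPM only in floxed TAC libraries and so entered the test through that group. Mcm10 and Chaf1b reached 1 CPM only in TAC libraries, of both genotypes, and so entered through the TAC groups. Cdc6 (floxed sham 2), Gins2 (floxed sham 1) and Gins3 (cKO sham 2) each reached 1 CPM in only 1 sham library. They too needed TAC libraries to enter the test. All of these genes are included in the counts below. The series concerns how loss of Lin28a alters the growth of mouse hearts under pressure overload, and left ventricular mRNA was sequenced in 8 libraries, 2 for each of 4 groups. Mice of genotype Lin28afl/fl (floxed littermates, here "floxed") or Lin28aCko (a cardiac-specific knockout, here "cKO") underwent either sham surgery or transverse aortic constriction (TAC), a band that narrows the aorta and raises the pressure against which the left ventricle pumps. TAC hearts were collected on day 5; the labels state no day of collection for sham hearts. The sources used here do not give the driver of the Cre recombinase, the ages of the animals or whether tissue was pooled. The libraries are described as duplicates without a statement that they came from different animals. Sex-linked transcripts, given below, differ between cKO sham 1 and cKO sham 2, so these 2 libraries came from different animals. Every p-value below reflects the spread between the duplicates, which may be technical in the other groups. Genotype is taken from the labels, since Lin28a transcripts are not analysed here.

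In a dividing cell, the origin recognition complex with Cdc6 and Cdt1 loads the MCM ring onto DNA, and Mcm10, Cdc45 and the GINS complex turn that ring into an active helicase at the start of S phase. DNA polymerase alpha with primase then lays down primers, the RFC complex loads the PCNA clamp, polymerases epsilon and delta extend the strands, RPA covers the exposed single strands, and Fen1 and Lig1 join the lagging-strand fragments. Many of these genes are transcribed in S phase by E2F factors, which are held back by RB-family proteins in resting cells. Most adult heart muscle cells have left the cell cycle, whereas fibroblasts, endothelial cells and immune cells of the heart can still divide.

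Library totals lay between 10315902 and 21871570 reads, so that a count of 0 allows up to 3 reads, or 0.137 to 0.291 CPM, which covers counting error only. Of the 360 replication gene values, 20 rested on fewer than 10 reads, and 1 was 0 (Orc1 in cKO sham 2). Heart muscle markers were abundant in every library, with 10 of 10 listed and a summed level of 42490 to 98193 CPM. Atrial transcripts separated floxed sham 2, cKO sham 2 and cKO TAC 2 from the rest, with the atrial light chain gene Myl7 at 133, 65 and 66.2 CPM in these 3 libraries and no more than 6.16 CPM elsewhere. The library cKO sham 2 also stood apart by sex-linked transcripts, with Xist at 44.3 CPM (0.173 CPM or less elsewhere) and the Y-linked gene Ddx3y at 0 (32.3 to 63.2 CPM elsewhere). For each comparison a median or a count without the libraries with atrial transcripts is also given. Non-overlap of libraries, correlations, and the levels and log2 differences of single genes are given with them only.

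TAC against sham in floxed hearts describes how hearts with Lin28a responded to pressure overload. Replication transcripts were broadly more abundant after TAC: 30 of the 45 genes rose, none fell and 15 did not pass the threshold, a Benjamini-Hochberg adjusted p under 0.05 in limma over all genes tested. The share that rose was 66.7%, against 27.9% of all genes tested, and 14.5% of all genes tested fell. The median log2 difference of the 45 genes was 0.95, against 0.14 over all genes tested, on the log2(CPM + 1) scale, which understates the change of genes with few reads. The risen genes ranged from Rfc2, a clamp loader subunit (log2 0.56 ± 0.15, SE of the fit), to Uhrf1, which brings the maintenance methyltransferase to copied DNA (log2 2.26 ± 0.24). The 15 genes that did not pass were Orc6, Gins1, Gins3, Gins4, Rfc1, Rfc4, Rpa1, Rpa2, Rpa3, Pola2, Pold1, Pold2, Pold3, Rnaseh2a and Dut. In 37 of the 45 genes both floxed TAC libraries lay above both floxed sham libraries, as in 46.7% of all genes tested, and in 4 genes (Rfc1, Rpa1, Rpa2 and Dut) they lay below, as in 28.9% of all genes. When libraries were scaled by median ratios (RLE) in place of their totals, the median of all genes moved from 0.14 to 0.00 and that of the replication genes from 0.95 to 0.81, and calls over all genes split into 2985 higher and 2595 lower in place of 3655 and 1907. That no replication gene fell depended on the scaling and, for Rfc1, also on whether floxed TAC 2 was used. Rfc1 and Rpa1 passed as lower with RLE or TMM scaling, DESeq2 or limma-voom. Rpa1 also passed as lower with edgeR, and Dut with limma-voom. Without floxed sham 1 the median of the replication genes was 0.92. Without the 3 libraries with atrial transcripts it was 1.06. That fit leaves floxed TAC as the only group with 2 libraries and assumes that the others vary like it. The same limit holds for this fit in the other comparisons. Among the risen genes Pole2 lost its call in 8 of 19 alternatives, Orc1 in 6 of 19, Rfc2 and Rfc3 in 6 of 20 each, and Pola1 and Pole in 5 of 20 each.

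**Figure D1:**
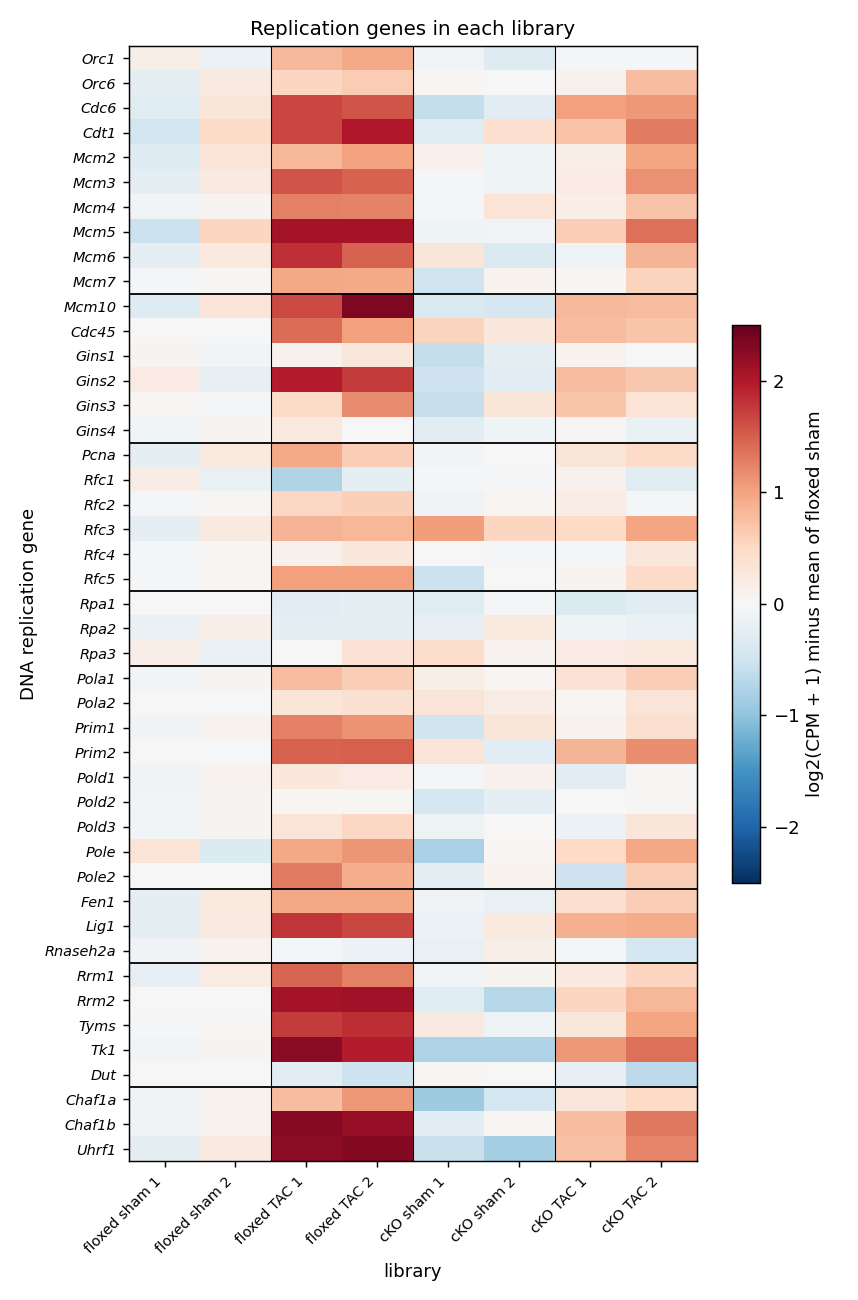
Level of each of the 45 replication genes (rows, grouped by role in the order of the text) in each of the 8 libraries (columns), as log2(CPM + 1) minus the mean of the 2 floxed sham libraries. Red marks higher and blue lower levels; the floxed TAC columns are red for most genes, the RPA genes, Rfc1, Rnaseh2a, Pold2 and Dut are pale or blue, and the cKO TAC columns lie between.

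Markers of other cell types moved in the same libraries. All 12 macrophage markers rose in floxed hearts after TAC, from a summed 426 and 435 CPM in sham to 2476 and 2191 CPM, and 8 of 10 fibroblast markers rose, from 1319 and 1378 CPM to 8913 and 10682 CPM. Of 10 heart muscle markers 7 fell, from 98193 and 84635 CPM summed to 42490 and 43967 CPM, while none of 10 endothelial markers passed in either direction (1582 to 1759 CPM over the floxed libraries); with RLE scaling the sialomucin gene Emcn passed as lower. Of 6 neutrophil markers 4 were listed and 3 rose, at 19.7 and 20 CPM summed in sham and 31.5 and 30.6 CPM after TAC, where S100a8 was at 0 in floxed sham 2. Lymphocyte markers were scarce, with 3 of 9 listed and 1.93 to 4.18 CPM summed in any library. All 16 mitosis genes rose, from 26.4 and 39.3 CPM to 303 and 303 CPM. In bulk tissue, more cells of a type and more RNA per cell cannot be told apart, and the part of these cell types in the replication result was not tested.

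Promoter windows were examined because the risen genes belong to a set known for shared control by E2F. RefSeq windows on GRCm38.p6, from 250 bases before to 50 bases after the transcript start, were matched for 38 of the 45 genes (44 windows, since 5 genes have more than 1 start), all but Mcm4, Gins1, Gins2, Gins4, Rfc2, Prim2 and Pole. The E2F core letters TTCCCGC or TTGGCGC, read on both strands, occurred in at least 1 window of 22 of these 38 genes (57.9%), and in 23 of the 44 windows, against 14.2% of the 9705 tested genes with a window and 7.79% of all 27025 genes with one. Of the replication genes that rose in floxed hearts 15 of 25 held a core, and of those that did not pass 7 of 13. The CCAAT box (letters CCAAT, both strands), bound by the factor NF-Y, was found for 24 of 38 genes (63.2%), against 42.7% of genes tested, and the CHR letters TTTGAA or TTCGAA for 7 of 38 (18.4%), against 16.1%. Of 34 E2F core matches 24 lay within 100 bases before to 50 bases after the start, 8 genes held 2 or more in 1 window, and 4 matches shared letters with a CCAAT match. Letters of a motif are a description of the window and not a measured binding site.

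The 250 bases before the start are shown for 6 genes, chosen with their values known, to set genes that rose, by large or small amounts, beside a gene that did not pass. Capitals mark E2F core and CCAAT letters on either strand. Mcm5 (chr8:75109259-75109508, plus strand) and Mcm6 (chr1:128359706-128359955, minus strand) each carry 2 E2F cores and 2 CCAAT boxes, Pola1 (chrX:93632156-93632405, minus strand), with the smallest response of the risen genes shown, carries 3 cores and 1 CCAAT box, and Rrm1 (chr7:102441445-102441694, plus strand) carries 1 core between 2 CCAAT boxes. Rrm2 (chr12:24708004-24708253, plus strand) rose in floxed TAC and has no E2F core of these letters in the window, and Rpa2 (chr4:132768110-132768359, plus strand) did not pass and has 1 core and 3 CCAAT boxes.
Mcm5: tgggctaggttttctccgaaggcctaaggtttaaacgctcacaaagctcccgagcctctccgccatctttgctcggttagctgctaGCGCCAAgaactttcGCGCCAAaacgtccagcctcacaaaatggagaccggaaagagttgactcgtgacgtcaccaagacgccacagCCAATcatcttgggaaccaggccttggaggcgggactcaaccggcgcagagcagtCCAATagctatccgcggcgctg
Mcm6: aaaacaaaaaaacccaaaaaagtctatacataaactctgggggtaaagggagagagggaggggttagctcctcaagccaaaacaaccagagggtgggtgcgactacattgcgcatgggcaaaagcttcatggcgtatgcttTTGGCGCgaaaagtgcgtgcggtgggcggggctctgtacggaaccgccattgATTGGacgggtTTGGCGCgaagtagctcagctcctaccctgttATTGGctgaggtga
Pola1: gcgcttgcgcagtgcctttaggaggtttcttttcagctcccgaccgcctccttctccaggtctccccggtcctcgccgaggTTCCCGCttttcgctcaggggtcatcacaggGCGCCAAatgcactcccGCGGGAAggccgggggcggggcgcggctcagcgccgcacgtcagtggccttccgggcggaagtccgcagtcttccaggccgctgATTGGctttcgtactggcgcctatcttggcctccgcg
Rrm1: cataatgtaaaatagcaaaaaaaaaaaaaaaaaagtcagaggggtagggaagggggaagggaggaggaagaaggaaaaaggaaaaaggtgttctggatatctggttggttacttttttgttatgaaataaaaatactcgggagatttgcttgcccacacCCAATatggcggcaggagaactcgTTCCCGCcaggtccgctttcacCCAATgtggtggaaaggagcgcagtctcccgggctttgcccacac
Rrm2: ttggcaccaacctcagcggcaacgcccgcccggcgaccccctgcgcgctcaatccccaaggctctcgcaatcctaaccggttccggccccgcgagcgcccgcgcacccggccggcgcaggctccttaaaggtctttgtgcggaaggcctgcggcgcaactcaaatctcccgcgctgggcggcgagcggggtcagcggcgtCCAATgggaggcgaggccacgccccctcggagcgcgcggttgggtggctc
Rpa2: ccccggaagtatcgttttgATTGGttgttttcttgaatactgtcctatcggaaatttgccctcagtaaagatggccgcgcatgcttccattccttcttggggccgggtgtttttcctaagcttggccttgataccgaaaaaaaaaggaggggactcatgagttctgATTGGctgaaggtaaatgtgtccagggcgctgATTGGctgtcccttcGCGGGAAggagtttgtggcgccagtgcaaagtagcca

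**Figure D2:**
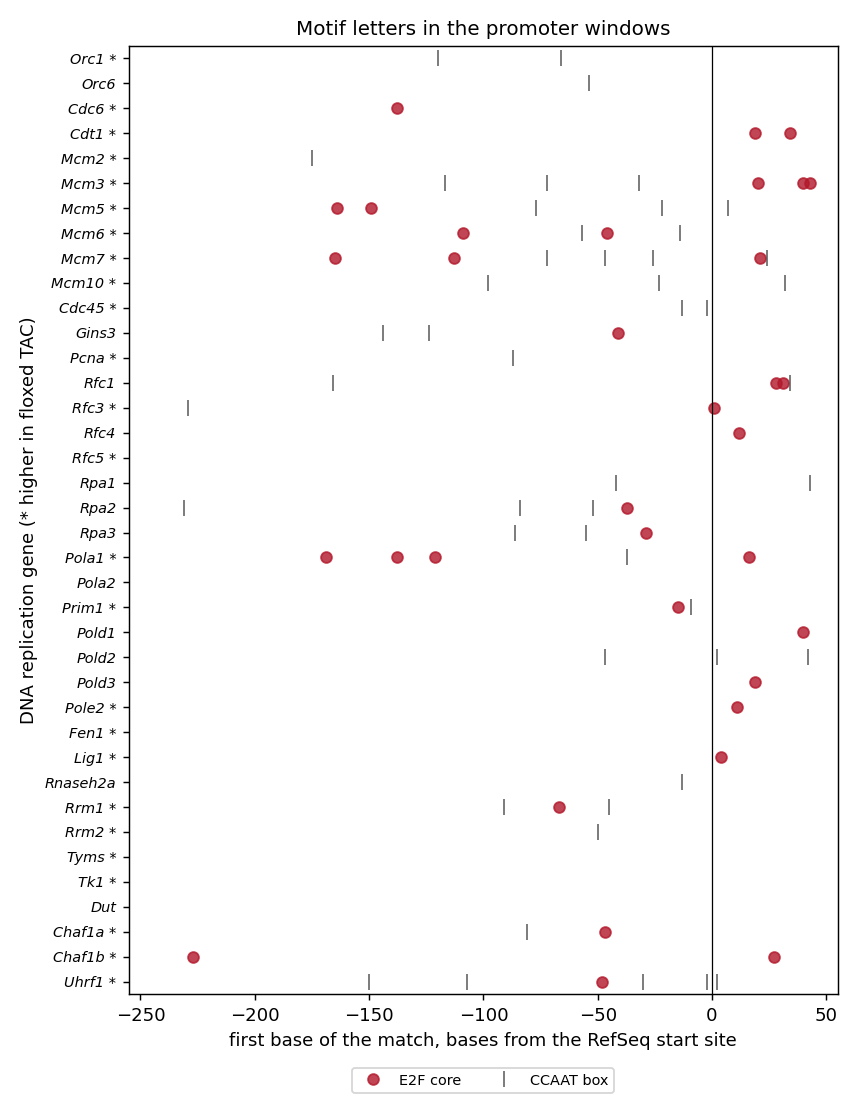
Positions of E2F core letters (circles) and CCAAT letters (ticks) in the promoter windows of the 38 replication genes with a window; the x axis is the distance in bases of the first base of a match from the RefSeq start, and a star marks genes that rose in floxed TAC hearts. Cores occur in 15 of 25 starred and 7 of 13 unstarred genes, and 24 of 34 core matches lie within 100 bases before to 50 after the start.

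Nearly all origin licensing and MCM genes rose after TAC. Of 10 genes 9 passed as higher in floxed hearts, with a median log2 difference of 1.38, and Orc6, an origin recognition subunit, did not pass (log2 0.59 ± 0.27, adjusted p = 0.104). Mcm5, an MCM ring subunit (chromosome 8, 75109569 to 75128439), was at 5.45 and 12.6 (floxed sham), 38.4 and 38.5 (floxed TAC), 7.66 and 7.96 (cKO sham) and 13.4 and 23.3 CPM (cKO TAC). Floxed TAC libraries were the highest, cKO TAC libraries lay between, and no TAC library overlapped the sham libraries of its genotype. Its floxed response was log2 2.07 ± 0.34 (adjusted p = 0.000973). Mcm6 (chromosome 1, 128331590 to 128359664) was at 10.3 and 14.7 (floxed sham), 46.2 and 36.0 (floxed TAC), 15.4 and 9.42 (cKO sham) and 11.3 and 23.0 CPM (cKO TAC). Here the cKO sham and cKO TAC libraries overlapped, while both floxed TAC libraries stood above the rest (log2 1.65 ± 0.33, adjusted p = 0.00317). Mcm4 was at 11.2 and 12.5 (floxed sham), 29.5 and 29.3 (floxed TAC), 11.3 and 15.3 (cKO sham) and 13.5 and 20.2 CPM (cKO TAC), with cKO groups overlapping again. Among the loading factors, Cdt1, which delivers the MCM ring, rose by log2 1.83 ± 0.37 (adjusted p = 0.00324), and Cdc6, its partner, rose by log2 1.62 ± 0.26 (adjusted p = 0.000974). Orc1, the largest origin recognition subunit, was at 0.389 and 0.12 (floxed sham), 1.19 and 1.39 (floxed TAC), 0.194 and 0 (cKO sham) and 0.221 and 0.23 CPM (cKO TAC), at most 6 reads in any library outside floxed TAC. Orc6 was at 3.05 and 4.56 (floxed sham), 5.90 and 6.36 (floxed TAC), 3.88 and 3.72 (cKO sham) and 4.14 and 7.15 CPM (cKO TAC).

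The MCM ring contains Mcm2 to Mcm7 in equal numbers, so their levels were compared per kilobase of exon. In floxed sham hearts the 6 genes lay between 2.61 ± 1.46 (Mcm5) and 4.44 ± 1.46 CPM per kb (Mcm2; SD, n = 2), and after TAC between 7.97 ± 0.096 (Mcm7) and 12.1 ± 0.671 CPM per kb (Mcm3). In cKO hearts they lay between 2.26 and 4.38 CPM per kb after sham surgery and between 3.92 and 6.95 CPM per kb after TAC. Within each group the highest of the 6 was less than 2-fold above the lowest, and the order of the genes differed between groups. Reads of Mcm7 also cover the microRNA genes Mir25 and Mir93 on the same strand and 321 bases of Ap4m1 on the opposite strand.

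Helicase activation genes were split. Mcm10, Cdc45 and Gins2 rose in floxed hearts and Gins1, Gins3 and Gins4 did not pass, although Gins1 to Gins4 encode the subunits of 1 complex. Mcm10, which acts as the ring is switched on, was at 0.13 and 0.78 (floxed sham), 3.43 and 6.18 (floxed TAC), 0.0969 and 0.0664 (cKO sham) and 1.49 and 1.44 CPM (cKO TAC). The cKO sham values are 1 read each and floxed sham 1 is 2 reads, so its fitted response (log2 1.99 ± 0.31, adjusted p = 0.000807) depends on the added 1 CPM. Gins2 was at 1.43 and 0.84 (floxed sham), 7.27 and 6.13 (floxed TAC), 0.485 and 0.73 (cKO sham) and 2.59 and 2.36 CPM (cKO TAC), with no overlap between TAC and sham in either genotype. The floxed response was log2 1.86 ± 0.24 (adjusted p = 0.000281), and 2758 bases of Gins2 exons overlap Gse1 on the opposite strand. Gins4, its partner in the complex, was at 16.1 and 18.0 (floxed sham), 20.4 and 16.9 (floxed TAC), 14.0 and 15.8 (cKO sham) and 17.3 and 15.0 CPM (cKO TAC), a flat profile with overlapping groups (log2 0.12 ± 0.17, adjusted p = 0.606). Cdc45, the helicase cofactor, rose by log2 1.21 ± 0.22 (adjusted p = 0.002), whereas Gins1 (log2 0.19 ± 0.24) and Gins3 (log2 0.83 ± 0.35, adjusted p = 0.0837) did not pass.

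The clamp and its loader also divided by subunit. Pcna, the sliding clamp, rose by log2 0.77 ± 0.18 (adjusted p = 0.00666), from 34.2 and 49.0 CPM in floxed sham to 79.3 and 62.9 CPM in floxed TAC; its annotated pseudogenes Pcna-ps1 and Pcna-ps2 make this level uncertain. Among small loader subunits Rfc2, Rfc3 and Rfc5 rose and Rfc4 did not pass (log2 0.19 ± 0.21). Rfc5 was at 3.83 and 4.14 (floxed sham), 9.10 and 9.11 (floxed TAC), 2.42 and 4.05 (cKO sham) and 4.25 and 5.94 CPM (cKO TAC). Rfc1, the large loader subunit, had lower values after TAC in floxed hearts, with 45.5 and 34.5 (floxed sham), 23.0 and 33.9 (floxed TAC), 38.3 and 38.0 (cKO sham) and 43.0 and 32.9 CPM (cKO TAC). Both floxed TAC libraries lay below both floxed sham libraries, but the difference did not pass (log2 -0.49 ± 0.21, adjusted p = 0.0879); with RLE scaling it passed as lower (log2 -0.63, adjusted p = 0.043). Rfc2 was at 17.2 and 18.1 (floxed sham), 25.8 and 27.0 (floxed TAC), 16.6 and 18.2 (cKO sham) and 20.1 and 17.1 CPM (cKO TAC). It rose in floxed hearts (adjusted p = 0.0143) but not with RLE scaling (log2 0.41, adjusted p = 0.0533), and 952 bases of its exons overlap Lat2, a gene of immune cells, on the opposite strand.

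None of the 3 RPA genes passed in any comparison with libraries scaled by their totals. Rpa1, the large subunit of the single-strand binding protein, was at 86.0 and 86.7 (floxed sham), 70.5 and 74.2 (floxed TAC), 69.5 and 83.6 (cKO sham) and 68.1 and 70.8 CPM (cKO TAC). Floxed TAC libraries lay below floxed sham libraries by log2 -0.25 ± 0.12 (adjusted p = 0.114), a difference that passed as lower with RLE scaling (log2 -0.40, adjusted p = 0.0171). Rpa3, the small subunit, was at 6.10 and 4.68 (floxed sham), 5.40 and 7.15 (floxed TAC), 7.56 and 5.77 (cKO sham) and 6.29 and 6.51 CPM (cKO TAC), with overlapping groups. Rpa2, whose promoter letters are shown above, differed by log2 -0.23 ± 0.19 (adjusted p = 0.377).

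Of the 9 polymerase and primase genes 5 rose in floxed hearts. These were both primase genes (Prim1 and Prim2), the polymerase alpha catalytic gene Pola1 and the polymerase epsilon genes Pole and Pole2, whereas Pola2 and the polymerase delta genes Pold1, Pold2 and Pold3 did not pass. Prim2, the large primase subunit, was at 2.34 and 2.34 (floxed sham), 8.28 and 8.41 (floxed TAC), 3.20 and 1.79 (cKO sham) and 5.02 and 6.51 CPM (cKO TAC) (floxed response log2 1.48 ± 0.25, adjusted p = 0.00113). Prim1, the catalytic primase, was at 1.75 and 2.10 (floxed sham), 5.99 and 5.34 (floxed TAC), 1.07 and 2.59 (cKO sham) and 2.10 and 2.88 CPM (cKO TAC). Pole, with the strand-extending activity of polymerase epsilon, rose by log2 1.03 ± 0.33 (adjusted p = 0.0314), and Pola1 by log2 0.70 ± 0.20 (adjusted p = 0.0179). The calls of both epsilon genes were lost with edgeR, that of Pole2 also with DESeq2 and limma-voom, and that of Pola1 with DESeq2. Pold2, a polymerase delta accessory subunit, was at 27.8 and 30.5 (floxed sham), 30.0 and 29.8 (floxed TAC), 21.3 and 24.8 (cKO sham) and 29.2 and 29.8 CPM (cKO TAC), with log2 0.04 ± 0.14 in floxed hearts. The catalytic gene Pold1 differed by log2 0.23 ± 0.18 and Pold3 by log2 0.41 ± 0.20 (adjusted p = 0.116). That the delta genes respond less than the epsilon genes was not tested.

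Of the maturation genes, Fen1, which trims the flaps of lagging-strand fragments, and Lig1, which seals them, rose in floxed hearts, and Rnaseh2a, which removes RNA from DNA, did not pass. Lig1 (chromosome 7, 13277283 to 13311433) was at 4.48 and 6.48 (floxed sham), 21.1 and 19.4 (floxed TAC), 4.75 and 6.57 (cKO sham) and 10.8 and 11.1 CPM (cKO TAC). The TAC libraries of each genotype lay above its sham libraries, and the floxed response was log2 1.73 ± 0.22 (adjusted p = 0.000244). Fen1 rose by log2 0.97 ± 0.21 (adjusted p = 0.00476), with 1909 bases of its exons overlapping an antisense gene, Gm10143. Rnaseh2a was at 17.5 and 19.7 (floxed sham), 18.1 and 16.6 (floxed TAC), 16.1 and 20.7 (cKO sham) and 17.9 and 13.4 CPM (cKO TAC) (floxed response log2 -0.10 ± 0.19).

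Deoxynucleotide supply held several of the strongest responses, and 4 of its 5 genes rose in floxed hearts. Rrm2, the S-phase small subunit of ribonucleotide reductase (chromosome 12, 24708241 to 24714146), was at 3.76 and 3.84 (floxed sham), 19.2 and 19.6 (floxed TAC), 2.91 and 1.92 (cKO sham) and 5.96 and 7.49 CPM (cKO TAC). Its partner Rrm1 (chromosome 7, 102441695 to 102469771), the large subunit, was at 20.4 and 27.1 (floxed sham), 66.4 and 57.8 (floxed TAC), 22.4 and 24.8 (cKO sham) and 28 and 34.7 CPM (cKO TAC). Both floxed TAC libraries exceeded every other library for either gene, by log2 2.09 ± 0.22 for Rrm2 (adjusted p = 9.05e-05) and log2 1.36 ± 0.17 for Rrm1 (adjusted p = 0.000252) against floxed sham. Tk1, the S-phase thymidine kinase (chromosome 11, 117815526 to 117826092), was at 2.66 and 3.06 (floxed sham), 17.4 and 14.1 (floxed TAC), 1.26 and 1.26 (cKO sham) and 7.23 and 8.99 CPM (cKO TAC). No TAC library overlapped a sham library of either genotype, and the responses were log2 2.11 ± 0.21 in floxed and log2 2.0 ± 0.21 in cKO hearts (adjusted p = 7.74e-05 and 0.0031). Tyms, the thymidylate synthase gene (chromosome 5, 30058202 to 30073617), was at 4.67 and 4.92 (floxed sham), 18.5 and 19.9 (floxed TAC), 5.82 and 4.31 (cKO sham) and 6.01 and 10.4 CPM (cKO TAC). Floxed TAC libraries were above all others, while cKO TAC 1 lay close to cKO sham 1; the annotated pseudogene Tyms-ps makes the level uncertain. Dut, which destroys dUTP, was at 15.9 and 15.9 (floxed sham), 12.8 and 10.8 (floxed TAC), 16.4 and 15.9 (cKO sham) and 13.7 and 9.80 CPM (cKO TAC). TAC libraries lay below sham libraries in both genotypes, and neither difference passed (log2 -0.40 ± 0.19, adjusted p = 0.115, and log2 -0.45 ± 0.19, adjusted p = 0.281).

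The 3 chromatin genes all rose in floxed hearts, with a median log2 difference of 2.22. Uhrf1 (chromosome 17, 56303321 to 56323486) was at 3.89 and 5.76 (floxed sham), 26.1 and 27.2 (floxed TAC), 2.91 and 2.26 (cKO sham) and 8.61 and 12.3 CPM (cKO TAC). Chaf1b, a subunit of the histone chaperone CAF-1, was at 0.454 and 0.66 (floxed sham), 6.49 and 6.04 (floxed TAC), 0.291 and 0.597 (cKO sham) and 1.65 and 2.88 CPM (cKO TAC). The order of groups was the same for both genes, floxed TAC highest, then cKO TAC, then the sham groups. Chaf1a, the large CAF-1 subunit, was at 6.16 and 7.02 (floxed sham), 12.0 and 15.1 (floxed TAC), 3.10 and 4.58 (cKO sham) and 8.16 and 9.74 CPM (cKO TAC). It rose in both genotypes (log2 0.93 ± 0.22 and 1.05 ± 0.22, adjusted p = 0.00809 and 0.0432), but its call in cKO hearts was lost in 10 of 20 alternatives, 7 of them with 1 library left out; 4648 bases of its exons overlap Ubxn6 on the opposite strand.

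**Figure D3:**
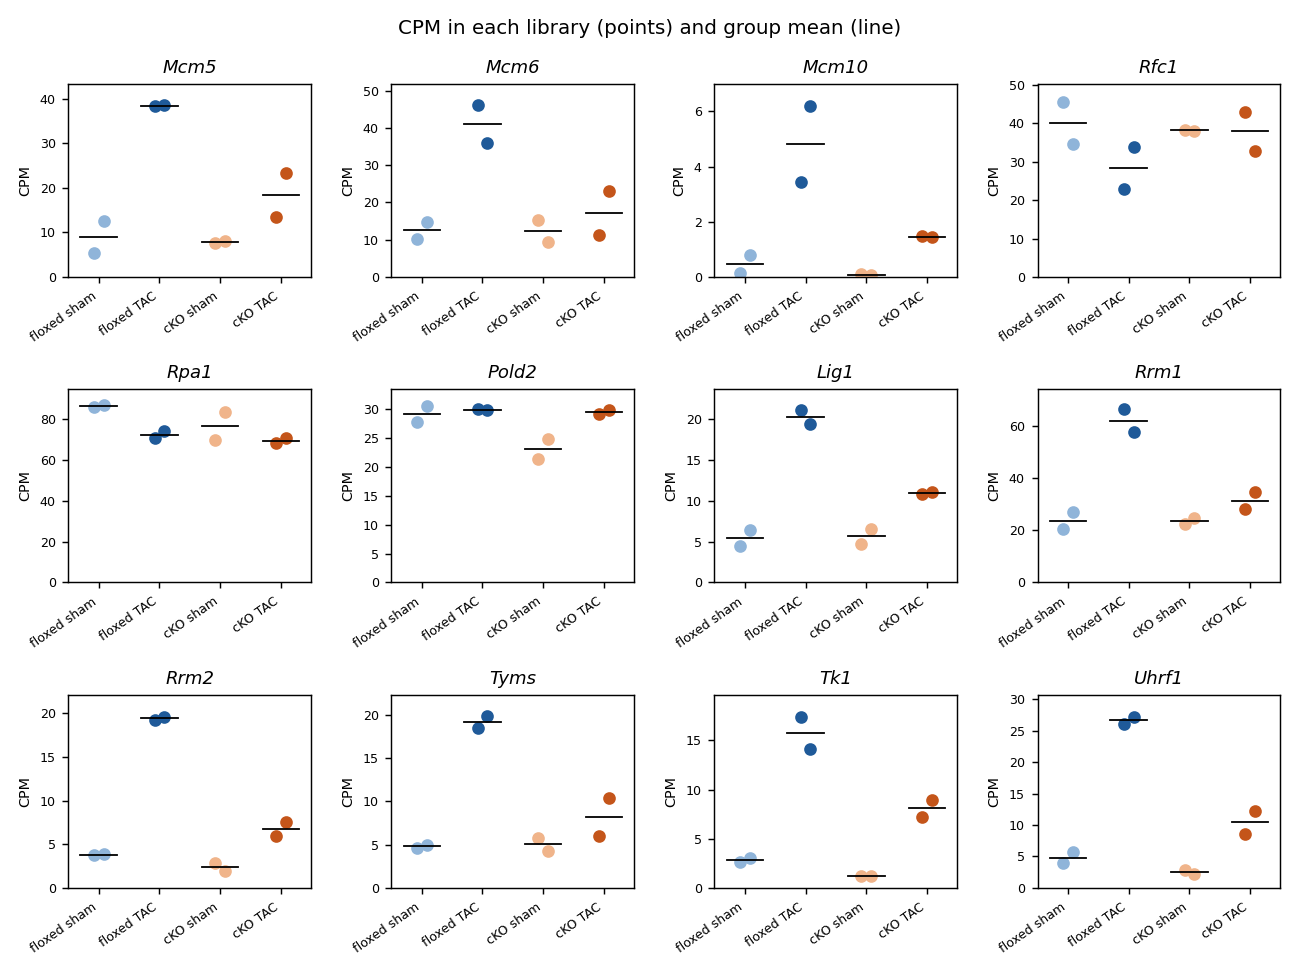
CPM of 12 replication genes in each library (points) and the mean of each group of 2 libraries (line), from 0 on each y axis. For Mcm5, Mcm6, Mcm10, Lig1, Rrm1, Rrm2, Tyms, Tk1 and Uhrf1 both floxed TAC libraries lie above all other libraries, whereas Rfc1, Rpa1 and Pold2 do not show this order.

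TAC against sham in cKO hearts gives the response in hearts labelled Lin28aCko. Replication transcripts were higher by a median log2 difference of 0.43, against 0.02 over all genes tested, and 6 of 45 genes rose (13.3%, against 2.09% of all genes tested) while none fell, against 0.442% of all genes. The median was 0.24 without cKO TAC 2 and 0.24 to 0.58 over all fits with 1 library left out. Without the 3 libraries with atrial transcripts it was 0.29, in a fit that leaves 1 library in each cKO group. The 6 were Tk1, Uhrf1 (log2 1.67 ± 0.24, adjusted p = 0.00903), Cdc6 (log2 1.49 ± 0.26, adjusted p = 0.0209), Rrm2 (log2 1.18 ± 0.22, adjusted p = 0.0251), Gins2 (log2 1.12 ± 0.24, adjusted p = 0.0467) and Chaf1a. In 27 genes both cKO TAC libraries lay above both cKO sham libraries, as in 23.0% of all genes tested, and in Dut alone they lay below, as in 19.9%. The libraries of the group differed: cKO TAC 2 exceeded cKO TAC 1 for 34 of the 45 genes, as for 63.0% of all genes tested, with per-library medians of 0.20 and 0.62 above floxed sham on the log2 scale. In the same libraries macrophage markers summed to 766 and 1058 CPM and mitosis genes to 110 and 168 CPM, against 350 to 458 CPM and 17 to 26.6 CPM in cKO sham, and 10 of 12 macrophage markers and 13 of 16 mitosis genes rose. The part of these cells in the difference was not tested. Gins2 lost its call in 13 of 20 alternatives, Chaf1a in 10 of 20, Rrm2 in 9 of 20, Cdc6 in 7 of 19 and Uhrf1 in 3 of 20. Tk1 remained past the threshold with any 1 library left out, whereas without cKO sham 2 it was the only replication gene that passed. The count was 2 without floxed TAC 2 or cKO TAC 2, 3 without floxed sham 1, floxed sham 2, floxed TAC 1 or cKO sham 1, and 0 by limma without the 3 libraries with atrial transcripts. Over the fits with 1 library left out, 0.511% to 3.90% of all genes tested rose.

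The TAC responses of the 2 genotypes share no library. Of the 30 genes that rose in floxed hearts, 29 had a positive fitted response in cKO hearts, and Rfc3 was at log2 -0.05 ± 0.26. Across the 45 genes the responses were correlated with Pearson's r of 0.83 and Spearman's rho of 0.82, against 0.62 and 0.51 across all 13120 genes; genes within a library are not independent replicates. Genes with low levels in sham hearts tended to have larger responses: the level per kilobase in cKO sham and the floxed response were correlated with Pearson's r of -0.57 and Spearman's rho of -0.64 across the 45 genes, which share libraries, depth and the added 1 CPM. Chaf1a, Pole and Tk1 had responses of nearly the same size in both genotypes (log2 0.93 and 1.05, 1.03 and 1.12, and 2.11 and 2.0), and Cdc6 did also (1.62 and 1.49). Mcm6, Mcm4, Rrm1 and Tyms lay at the other end, with 1.65 and 0.39, 1.24 and 0.30, 1.36 and 0.39, and 1.80 and 0.57.

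**Figure D4:**
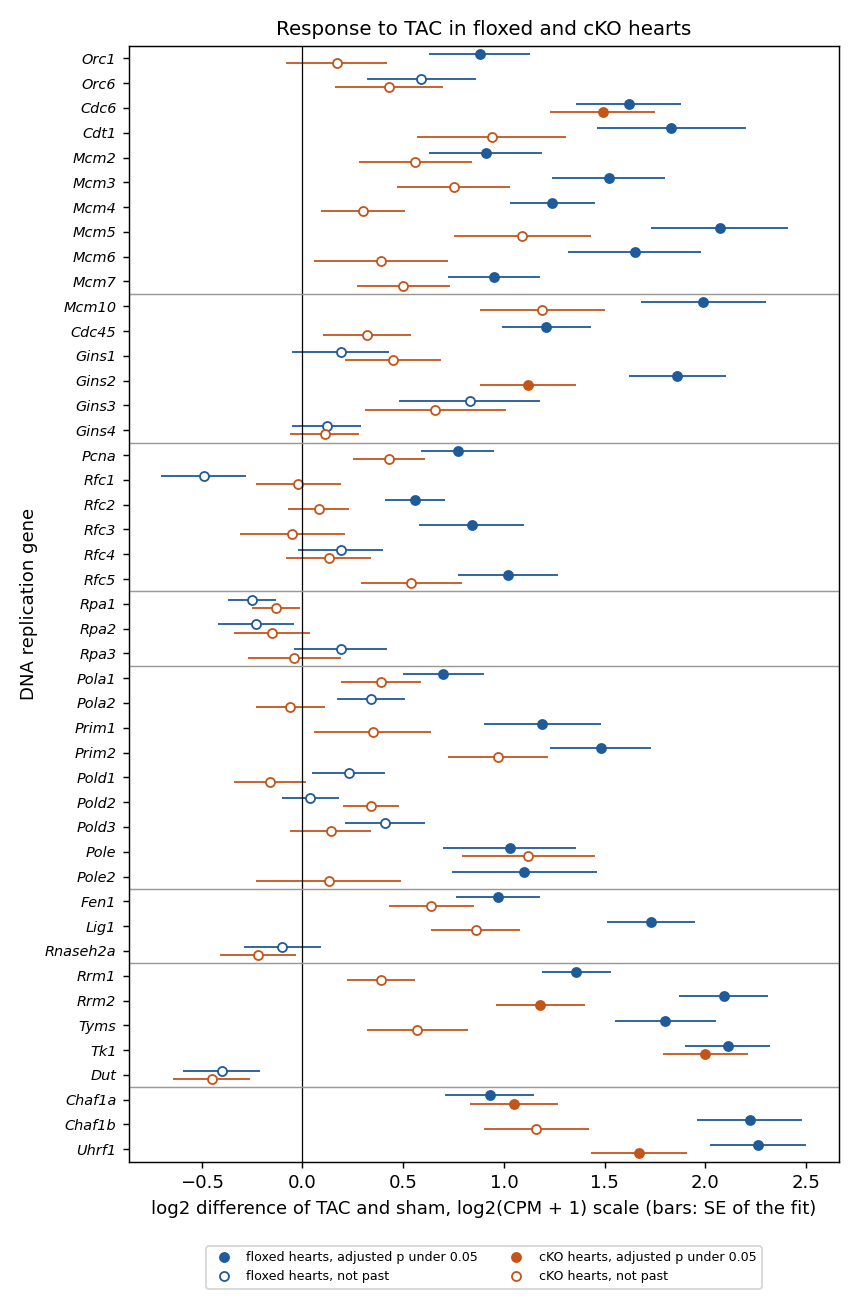
Log2 difference of TAC and sham for each replication gene in floxed (blue) and cKO (orange) hearts on the log2(CPM + 1) scale, with bars of 1 SE of the fit; filled points passed an adjusted p under 0.05. In floxed hearts 30 points are filled, all above 0, and in cKO hearts 6.

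Comparison of the genotypes after sham surgery asks whether the genotypes differed without pressure overload. No replication gene passed by limma (smallest adjusted p = 0.462), against 0.0534% of all genes tested, and none passed by edgeR, DESeq2 or limma-voom. At an unadjusted p under 0.05, 6 of 45 genes were past, against 7.72% of all genes. The median log2 difference was -0.07, against 0.02 over all genes. Without the 3 libraries with atrial transcripts the median of the replication genes was -0.04. Values of 10 genes did not overlap and were lower in cKO sham, as in 17.1% of all genes, and 4 were higher, as in 24.9%. The 10 were Mcm10, Gins1, Gins2, Gins4, Rpa1, Pold2, Rrm2, Tk1, Chaf1a and Uhrf1. Of these, Tk1 (log2 -0.77 ± 0.21), Uhrf1 (log2 -0.69 ± 0.24) and Chaf1a (log2 -0.66 ± 0.22) had the greatest differences. The 4 higher genes were Rfc3 (log2 0.79 ± 0.26), Cdc45 (0.42 ± 0.22), Pola2 (0.25 ± 0.17) and Dut (0.02 ± 0.19). Rfc3 had the largest difference in size of all 45 genes. With 2 libraries per group these values do not show that the genotypes were alike.

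The genotypes were also compared under pressure overload, between the TAC groups. Replication transcripts were lower in cKO hearts: 15 of 45 genes were lower (33.3%, against 16.5% of all genes tested) and none was higher, against 8.39% of all genes. The median log2 difference was -0.47, against -0.10 over all genes. With RLE scaling, 13 replication genes were lower (not Mcm5 and Rfc2), the median of the 45 was -0.39, and calls over all genes split into 1421 higher and 1752 lower in place of 1101 and 2162. The comparison shares the floxed TAC libraries with the floxed response and the cKO TAC libraries with the cKO response. In 32 genes both cKO TAC libraries lay below both floxed TAC libraries, as in 40.2% of all genes, and Rpa2 alone lay above, as in 23.6%.

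By role, the genes lower in cKO TAC hearts were 4 of 5 deoxynucleotide, 2 of 3 chromatin, 4 of 10 licensing and MCM and 2 of 6 helicase activation genes. The rest were 1 of 6 clamp and loader genes (16.7%), 1 of 9 polymerase and primase genes (11.1%) and 1 of 3 maturation genes. None of the 3 RPA genes was lower. Over all genes tested 16.5% were lower, so the clamp and polymerase lists lay near or below that share. Rrm2 had the greatest difference (log2 -1.41 ± 0.22, adjusted p = 0.00272), followed by Uhrf1 (log2 -1.29 ± 0.24, adjusted p = 0.00548) and Mcm6 (log2 -1.28 ± 0.33, adjusted p = 0.0206). Mcm10 (log2 -1.19 ± 0.31), Chaf1b (log2 -1.18 ± 0.26), Tyms (log2 -1.17 ± 0.25) and Gins2 (log2 -1.14 ± 0.24) followed, with adjusted p = 0.0214, 0.0116, 0.00983 and 0.00916. Mcm5 (log2 -1.07 ± 0.34, adjusted p = 0.0428), Rrm1 (log2 -0.97 ± 0.17, adjusted p = 0.00475), Prim1 (log2 -0.94 ± 0.29, adjusted p = 0.0403) and Orc1 (log2 -0.90 ± 0.25, adjusted p = 0.0284) were also lower. The remaining 4 were Tk1 (log2 -0.88 ± 0.21), Lig1 (log2 -0.83 ± 0.22), Mcm4 (log2 -0.80 ± 0.21) and Rfc2 (log2 -0.49 ± 0.15), with adjusted p = 0.0159, 0.0223, 0.0239 and 0.0402. Mcm3 (log2 -0.84 ± 0.28, adjusted p = 0.0529) and Rfc5 (log2 -0.74 ± 0.25, adjusted p = 0.0531) fell just outside the threshold. Rrm1, Rrm2 and Uhrf1 passed under every alternative tried. Rfc2 lost its call in 14 of 20 alternatives, Prim1 in 10, Mcm5 in 9, Orc1 in 8 of 19 and Mcm10 in 7 of 19. Fewer genes passed without floxed TAC 1, without floxed TAC 2 or without cKO TAC 1. The share of replication genes that were lower then lay near that of all genes. Each of these fits leaves 1 library in a compared group. The median log2 difference of the replication genes was -0.52, -0.46 and -0.39 in these fits, and -0.59 without cKO TAC 2. Without the 3 libraries with atrial transcripts it was also -0.59, in a fit where floxed TAC alone keeps 2 libraries.

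Cell type markers differed between the TAC groups as well. All 12 macrophage markers were lower in cKO TAC hearts (766 and 1058 CPM summed, against 2476 and 2191 CPM), as were 6 of 10 fibroblast markers (2669 and 4277 CPM, against 8913 and 10682 CPM) and 12 of 16 mitosis genes, while 8 of 10 heart muscle markers were higher (86894 and 66725 CPM, against 42490 and 43967 CPM). The endothelial list had none past in either direction (1390 and 1979 CPM, against 1582 and 1759 CPM). Within cKO TAC, the library with more replication transcripts (cKO TAC 2) also had more macrophage, fibroblast and endothelial marker transcripts and fewer heart muscle marker transcripts. It exceeded cKO TAC 1 for 63.0% of all genes tested, and it carried atrial transcripts. The part of these cell types in the replication result was not tested.

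**Figure D5:**
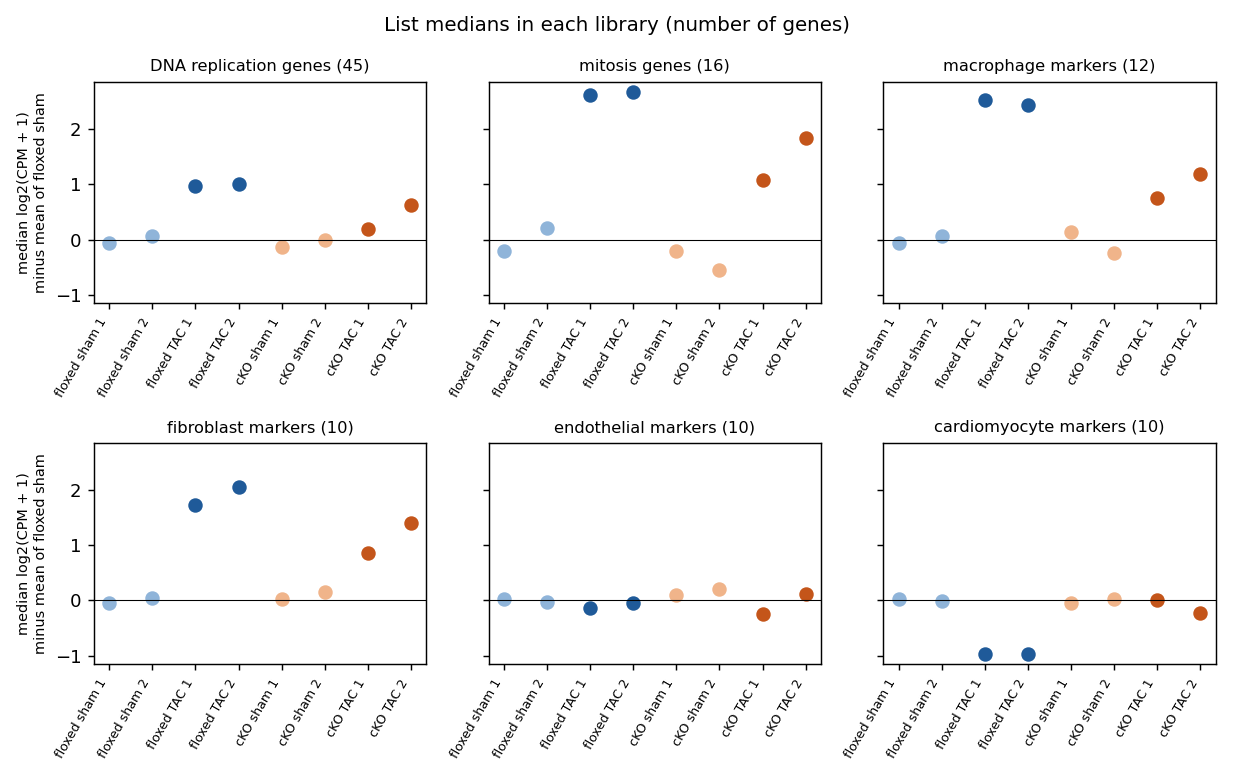
Median over each gene list, in each library, of log2(CPM + 1) minus the mean of floxed sham, for the replication genes, mitosis genes and 4 sets of cell type markers (number of genes in brackets). Replication genes reach 0.96 and 1.00 in floxed TAC and 0.20 and 0.62 in cKO TAC. The mitosis, macrophage and fibroblast lists are also highest in floxed TAC and next in cKO TAC. The endothelial list lies between -0.25 and 0.21, and the heart muscle list is at -0.97 in both floxed TAC libraries.

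The genotype by surgery interaction subtracts the floxed TAC response from the cKO TAC response and tests whether the responses themselves differed. The median over the 45 genes was -0.40, against -0.13 over all genes tested, and the cKO response was the smaller for 38 of 45 genes, against 7857 of 13120 genes. Only Rrm1 (log2 -0.97 ± 0.24, adjusted p = 0.0302) and Tyms (log2 -1.23 ± 0.36, adjusted p = 0.0478) passed, both with a smaller response in cKO hearts. That is 2 of 45 genes, or 4.44%, against 9.18% of all genes tested with a lower and 4.93% with a higher response. Mcm4 (log2 -0.94 ± 0.30, adjusted p = 0.0664), Rrm2 (log2 -0.90 ± 0.31, adjusted p = 0.0776), Chaf1b (log2 -1.06 ± 0.37, adjusted p = 0.0843) and Lig1 (log2 -0.87 ± 0.31, adjusted p = 0.0875) came next. Tyms lost its call in 15 of 19 alternatives. Rrm1 lost it in 6, each with 1 library left out. The count was 7 without cKO TAC 2 (15.6%, against 15.7% of all genes with a lower response in that fit), 1 without floxed sham 2 and 0 without any other single library. More replication genes passed without the 3 libraries with atrial transcripts. That fit leaves floxed TAC as the only group with 2 libraries and takes its spread from that group alone. Whether the position of the replication genes against all genes depends on these libraries was therefore not tested. With RLE scaling calls over all genes split into 846 higher and 917 lower in place of 647 and 1204.

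Other replication genes and their regulators are given from lists chosen with earlier results of these data known. Of 27 further replication factors 13 rose, 1 fell and 13 did not pass in floxed hearts, with a median log2 difference of 0.55; with RLE scaling Donson and Pole4 did not pass (adjusted p = 0.0665 and 0.114). Chtf18, part of an alternative clamp loader, rose by log2 1.52, the polymerase delta subunit gene Pold4 by 1.28, the checkpoint mediator Clspn by 1.89 and the origin firing factor Ticrr by 1.58. Of the origin recognition genes in this list, Orc2, Orc4 and Orc5 did not pass (log2 0.27, -0.04 and 0.02) and Orc3 fell (log2 -0.33). Of 10 S-phase kinase and licensing control genes 6 rose, among them the S-phase cyclin Ccna2 (log2 3.01 ± 0.35, adjusted p = 0.000175), the Cdc7 activator Dbf4 (log2 1.77) and Ccne1 (log2 1.27), and Gmnn, the inhibitor of Cdt1, fell (log2 -0.64). Of 11 further chromatin genes 7 rose, with the PCNA-binding factor Pclaf at log2 3.16 and the histone chaperone Asf1b at 1.93; with RLE scaling Dnmt1 did not pass (adjusted p = 0.0518) and Asf1a passed as lower (log2 -0.51, adjusted p = 0.0275). Of 8 further nucleotide genes 5 rose, with Dck at log2 1.47, and Rrm2b, the reductase subunit used outside S phase, fell (log2 -0.72). In cKO hearts only Clspn, Ccna2 and Pclaf of these 4 lists rose.

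Of 14 E2F and RB family genes 10 rose and 3 fell in floxed hearts. The activator E2Fs E2f1 (log2 1.26), E2f2 (1.63) and E2f3 (0.88), the repressors E2f7 (1.63) and E2f8 (1.23), and E2f4 (0.45), E2f5 (0.97), Tfdp1 (0.51), Rbl1 (1.16) and Mybl2 (2.09) rose. E2f6 (log2 -0.63), Tfdp2 (-0.87) and the quiescence-linked pocket protein gene Rbl2 (-0.66) fell, and Rb1 did not pass (-0.10); with RLE scaling E2f4 did not pass (adjusted p = 0.0933). Of these, E2f1, E2f2 and E2f8 rose in cKO hearts, and between TAC hearts 3 were higher in cKO, E2f6 (log2 0.49), Tfdp2 (0.72) and Rbl2 (0.57), and 3 were lower, E2f2 (-0.92), Tfdp1 (-0.43) and Mybl2 (-1.21). With RLE scaling E2f2 and Tfdp1 did not pass there (adjusted p = 0.0511 and 0.082). Among CDK inhibitors, Cdkn1c, which encodes p57, was at 36.1 and 29.5 (floxed sham), 6.49 and 6.13 (floxed TAC), 26.3 and 25.9 (cKO sham) and 18.3 and 14.0 CPM (cKO TAC). It fell in floxed hearts (log2 -2.20 ± 0.18, adjusted p = 2.99e-05), and its interaction was log2 1.53 (adjusted p = 0.00804). Cdkn1a (log2 2.59 ± 0.51), Cdkn2b (1.07), Cdkn2c (0.66) and Cdkn2d (0.53) rose in floxed hearts, and Cdkn1b did not pass (-0.35, adjusted p = 0.0911). With RLE scaling Cdkn2c and Cdkn2d did not pass (adjusted p = 0.0673 and 0.0576) and Cdkn1b passed as lower (log2 -0.49, adjusted p = 0.0177). In cKO hearts none of the 6 CDK inhibitors passed.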

How the data were processed

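mRNA of mouse left ventricles in 8 libraries was analysed from the authors' table of CPM, the reads of a gene scaled to the total of its library. Per the submitters' processing notes, Bowtie2 2.2.6, HTSeq and DESeq2 were used with the mm10 genome; the annotation and the strand setting of the counting are not stated in the sources used here. Per the labels, the library kit marks strand. Whole reads could be recovered for 100% of the deposited CPM values in each library, with a tolerance of 0.02 reads. Reads of unlisted genes made up 0.153% to 0.201% of a library.

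Because the values are CPM, limma 3.58.1 (R 4.3.3) with a trended variance was fitted to log2(CPM + 1), with 1 coefficient per group and all 8 libraries. A gene was tested if it reached 1 CPM in 2 or more libraries (13120 genes, with 319 removed), and p-values were adjusted over all of them by the Benjamini-Hochberg method, with a threshold of 0.05. The script was tested on simulated data. The members and all gene lists were chosen with earlier results of these data known, and lists are described by counts and medians. Library values are given for the members with the largest and smallest floxed response in each role and for every member past the threshold between genotypes; of other lists at most the 4 genes with the smallest adjusted p are named in full, and the E2F family and CDK inhibitors throughout. Orc2 to Orc5, Donson, Pole4, Gmnn, Dnmt1, Asf1a, Rrm2b and Emcn were named after their values were seen.

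Alternatives were the pseudocount, the filter, RLE and TMM scaling, edgeR 4.0.16, DESeq2 1.42.0 and limma-voom on recovered reads, only the libraries compared, a replicate block, each library left out, and the 3 libraries with atrial transcripts left out. On the recovered reads edgeR called 5559 genes for TAC against sham in floxed hearts, 346 in cKO hearts, 6 between genotypes in sham hearts, 3070 in TAC hearts and 1601 for the interaction. Exon lengths, coordinates and overlaps are from GENCODE M21 and promoter windows from RefSeq (GRCm38.p6), both on the mm10 assembly. Exons of 16 members overlap another gene, 13 of them by at least 100 bases, so their counts are uncertain without the strand setting.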

Additional observations from a re-analysis of the deposited data

Results flagged for a closer look

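The TAC response of 2 of the 45 replication genes passed as different between genotypes in the interaction test itself. That is 4.44%, against 9.18% of all genes tested with a lower and 4.93% with a higher response in cKO hearts. For Rrm1, the large subunit of ribonucleotide reductase, the cKO response minus the floxed response was log2 -0.97, with 66.4 and 57.8 CPM in floxed TAC against 28 and 34.7 CPM in cKO TAC. For Tyms, the thymidylate synthase gene, it was log2 -1.23, with 18.5 and 19.9 CPM against 6.01 and 10.4 CPM. Neither call held with every library left out in turn. Tyms lost its call in 15 of 19 alternatives, among them RLE and TMM scaling, edgeR, DESeq2 and limma-voom.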

How the results depend on the processing

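No replication gene past the threshold changed direction under any alternative. Rfc1, Rpa1 and Dut, not past the threshold in floxed hearts, passed as lower there in some alternatives. In floxed hearts 17 of 30 calls held in every alternative in which the gene was tested, and the count was 19 to 30 with 1 library left out, lowest without floxed sham 1 (11 calls lost). In cKO hearts the count of 6 became 10 with DESeq2, 2 with limma-voom, 1 with only the libraries compared and 0 without the 3 libraries with atrial transcripts, and was 1 to 7 with 1 library left out: 1 without cKO sham 2, 2 without floxed TAC 2 or cKO TAC 2, and 3 without floxed sham 1, floxed sham 2, floxed TAC 1 or cKO sham 1. In sham hearts it was 0 throughout (0 to 0 with 1 library left out). Between genotypes in TAC hearts the range was 4 to 16. For the interaction the count of 2 became 1 with a pseudocount of 0.5 or 0.1, with RLE or TMM scaling and with edgeR, DESeq2 or limma-voom, 10 without the 3 libraries with atrial transcripts, and 0 to 7 with 1 library left out (1 without floxed sham 2, 7 without cKO TAC 2, 0 without any other single library); without those 3 libraries its median was -0.63 in place of -0.40. A fit with only the libraries compared was not made for the interaction, which uses all 8. The fit without the 3 libraries with atrial transcripts takes its spread from floxed TAC alone, which limits its counts in every comparison. Over all genes, calls ranged with 1 library left out from 3618 (without floxed sham 1) to 5919 in floxed hearts, 71 to 615 in cKO hearts, 1 to 15 and 1400 to 3622 between genotypes in sham and TAC hearts, and 254 to 2919 for the interaction; the 332 in cKO hearts became 688 with DESeq2, 133 with limma-voom, 45 with only the libraries compared and 53 without the 3 libraries, and the 7 in sham hearts became 49 with DESeq2 and 2 with limma-voom. Replicate numbers did not pair the libraries (correlations of -0.105 to 0.0812 between same-numbered deviations); with the replicate block 30, 5, 0, 18 and 2 replication genes passed in the order of the comparisons above. The cause of these changes was not tested. Genes with few reads (Orc1, Cdc6, Mcm10, Chaf1b) are limited by depth.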
